A study of Citrus maxima and Citrus sinensis with 12 samples.

Results

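The question here was which root-tip miRNAs answered toxic boron differently in C. grandis, the pummelo that the labels enter as Citrus maxima, and in C. sinensis, the sweet orange. For each miRNA the log2 response of C. grandis (400 over 10 µM H3BO3) was set against the log2 response of C. sinensis, and their difference was tested. A negative difference means a lower response in C. grandis. All 12 small RNA libraries entered the comparison, 3 from C. grandis at 400 µM, 3 from C. grandis at 10 µM, 3 from C. sinensis at 400 µM and 3 from C. sinensis at 10 µM H3BO3. Seedlings of both species were 11 weeks old when sand culture began and had been watered with nutrient solution of the given boron level for 15 weeks when root tips were taken. The submitters describe each library as prepared from mixed RNA of 5 replicates, and do not say whether the 3 libraries of a group come from separate plants, so p-values measure the spread between these libraries, which may be technical. The count table held 172 entries, 1 per miRNA locus, with 126 distinct mature sequences, and each sequence was counted once through its most abundant entry. Of these 126 sequences 124 had enough counts to be tested. RNA came from whole root tips, so fewer cells that make a miRNA and less miRNA per cell cannot be told apart.

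Plant miRNAs are short RNAs cut from hairpin transcripts. Loaded into an Argonaute protein, they guide the cleavage of transcripts with a nearly complementary site. Many old families act on transcription factors that shape roots, among them the TCP factors (miR319), GRAS factors (miR171), NAC factors (miR164), class III HD-ZIP factors (miR165 and miR166) and auxin response factors (miR160 and miR167). Boron in excess is known to restrict root growth of citrus, and C. sinensis is generally held to tolerate it better than C. grandis.

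The sequences below carry the comparison. They are the 6 sequences with the smallest p in the difference of responses and the 2 sequences of the table most like the leading pair. They are written 5′ to 3′, with bases 2 to 8, the seed, in capitals.
miR3951: uUUCUCUUaucguuaucugug
bra-miR9563a-3p: uUUCUCUUaucuuuuaucugug
ci-miRN17: gUACUGUAgcugugagggggacgu
ptc-miR473a-5p: gUACUGUAgccgugagggggacgc
miR780: aGCUGUCCuucgugaauucauggc
mir7496: uUAGUGAAuucugucgauuuggac
miR396g-5p: uUCCACGGcuuucuugaacuu
miR5206: aCGGGGGAuucuuuugguugggga
The first and the second sequence share their seed and lie at an edit distance of 2. The third and the fourth also share a seed and lie at an edit distance of 2. The miR3951 hairpin window is on scaffold 1, plus strand, from 20960909 to 20961158, and that of bra-miR9563a-3p is on the same strand from 20985765 to 20986014. The ci-miRN17 window is on scaffold 3, minus strand, from 50071563 to 50071812. The ptc-miR473a-5p window is on the plus strand of scaffold 3, from 50071419 to 50071668, and overlaps it by 106 nt. Windows of miR780 (scaffold 2, minus strand, from 2459733), mir7496 (scaffold 9, plus strand, from 27731873), miR396g-5p (scaffold 4, minus strand, from 18510522) and miR5206 (scaffold 1366, plus strand, from 152) stand elsewhere. The genome build is not given in the sources used here, so the genes around these positions were not analysed here.

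Of the 124 sequences tested, 1 responded differently between the species at an adjusted p under 0.05, and it was miR3951, a family first described in citrus. This is 0.806% of the sequences tested, with 0 sequences higher in C. grandis. In C. grandis miR3951 was at 28.4, 100.6 and 91.4 CPM (the count relative to the scaled library total) at 400 µM, against 711, 589 and 4175 CPM at 10 µM. In C. sinensis it was at 221400, 184500 and 242800 CPM at 400 µM, against 228500, 258800 and 181800 CPM at 10 µM. Each C. grandis library at 400 µM was lower than every one at 10 µM, whereas the C. sinensis groups overlapped. Uncalled sequences also had groups apart in C. grandis only, among them bdi-miR166f (below) and miR167a, miR157 and miR477 (above). How many of all sequences had this pattern was not counted, so here and below it only describes the libraries. The log2 response of miR3951 was −4.66 in C. grandis (SE 0.75, n = 3 per group) and −0.04 in C. sinensis. Their difference was −4.61 (SE 0.95, 95% interval −6.68 to −2.54), a response 24.4-fold lower in C. grandis (adjusted p = 0.0477, edgeR quasi-likelihood test). On the linear scale the order is the other way, with a mean change of −1750 CPM in C. grandis and of −6800 CPM in C. sinensis, the second well within the C. sinensis SD of 29500 CPM at 400 µM and 38820 CPM at 10 µM. The authors' deposited target table predicts 1 target of miR3951, annotated with leucine-rich repeats.

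The miR3951 call is close to the threshold and moved with single libraries. Without C. grandis 10 µM replicate 3, the library at 4175 CPM, the difference was −3.17 (SE 0.52, adjusted p = 0.00832 in edgeR). It missed the threshold without C. grandis 400 µM replicate 1, 2 or 3 and without any 1 of the 6 C. sinensis libraries, at adjusted p = 0.0563 to 0.182 over these 9 fits, each of which had a difference between −4.997 and −4.198. DESeq2 gave −4.54 (adjusted p = 1.63e-05), and limma voom with weights per group gave −4.23 (adjusted p = 0.111). The SE and p of edgeR rest on a spread that all 12 libraries share for each sequence. The spread of miR3951 was not alike between species. At 10 µM its SD was 2036 CPM around a mean of 1825 CPM in C. grandis, against 38820 CPM around 223000 CPM in C. sinensis.

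**Figure D1:**
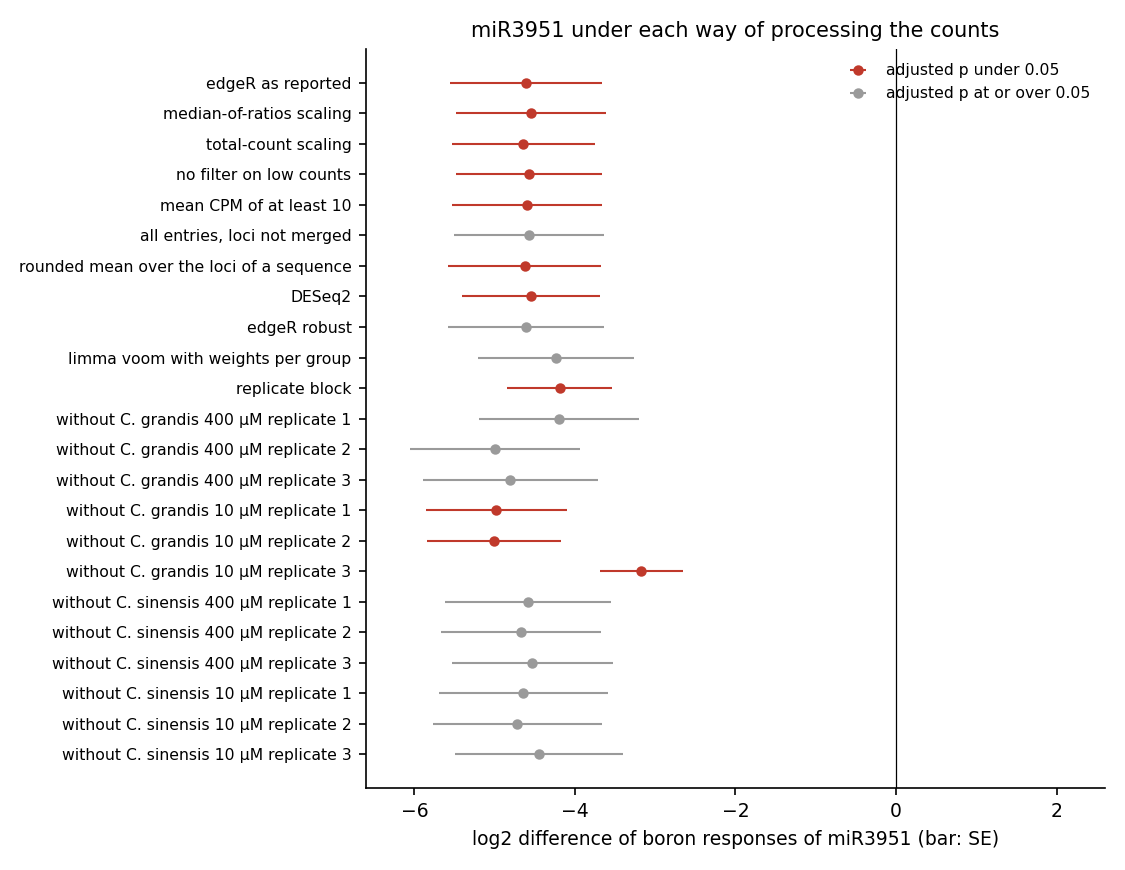
Log2 difference of boron responses of miR3951 (horizontal axis, C. grandis minus C. sinensis, with bars of 1 SE) as reported and under each of 22 other ways of processing the counts. Values run from −5.01 to −3.17, red points (adjusted p under 0.05) stand for the reported fit and 10 others, and the value nearest 0 is the fit without C. grandis 10 µM replicate 3.

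ci-miRN17, a 24-nt sequence with no named homologue, had the next smallest p, which missed the threshold. Its C. grandis level was at 17.03, 24.5 and 49.8 CPM at 400 µM, against 143, 79.3 and 399 CPM at 10 µM. In C. sinensis it was at 42860, 38610 and 36740 CPM at 400 µM, against 40020, 42040 and 37060 CPM at 10 µM. As for miR3951, the C. grandis groups did not overlap and the C. sinensis groups did. The difference was −2.78 (SE 0.71, 95% interval −4.32 to −1.25, adjusted p = 0.119, edgeR), from −2.79 in C. grandis and −0.01 in C. sinensis. It passed in 4 of 22 alternatives, among them DESeq2 and the fit without C. grandis 10 µM replicate 2 (lowest adjusted p = 0.00346), and was at −1.96 without C. grandis 10 µM replicate 3. The 2 near-identical sequences had differences closer to 0. In C. grandis bra-miR9563a-3p had a mean of 71320 ± 42340 CPM at 400 µM, against 52310 ± 18570 CPM at 10 µM (SD, n = 3 each), and its difference of responses was +0.17 (SE 0.52). ptc-miR473a-5p had a difference of −0.40 (SE 0.76). Whether the authors' counting kept reads of such near-identical pairs apart was not tested.

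Both leading sequences were scarce in C. grandis next to C. sinensis, where each stood more than 100 times higher on average. The table held 5 such sequences, chosen here after their levels were seen, and 0 with the reverse ratio. As a percentage of the mean over the 6 C. sinensis libraries, miR3951 stood at 0.0129, 0.0458 and 0.0416 in C. grandis at 400 µM, against 0.324, 0.268 and 1.90 at 10 µM. For ci-miRN17 the percentages were 0.0431, 0.062 and 0.126 at 400 µM, against 0.362, 0.201 and 1.01 at 10 µM. The C. grandis libraries had the same order for both, apart from 400 µM replicates 2 and 3, which changed places, and replicate 3 at 10 µM was the highest. The other 3 were mir7496, scaffold_8_42593 and scaffold_3_10325, with 0 to 2 counts in each C. grandis library, too few to order the libraries. The ratio of miR3951 to ci-miRN17 counts was 1.67, 4.10 and 1.83 in C. grandis at 400 µM, against 4.97, 7.42 and 10.5 at 10 µM. In C. sinensis this ratio was 5.17, 4.78 and 6.61 at 400 µM, against 5.71, 6.16 and 4.91 at 10 µM. The C. grandis ratios therefore spread more widely than those of C. sinensis, from 15 against 9 counts (95% exact binomial interval of the ratio 0.683 to 4.32) to 1935 against 185 counts (8.99 to 12.2). Whether reads of C. sinensis libraries reached those of C. grandis was not tested.

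**Figure D2:**
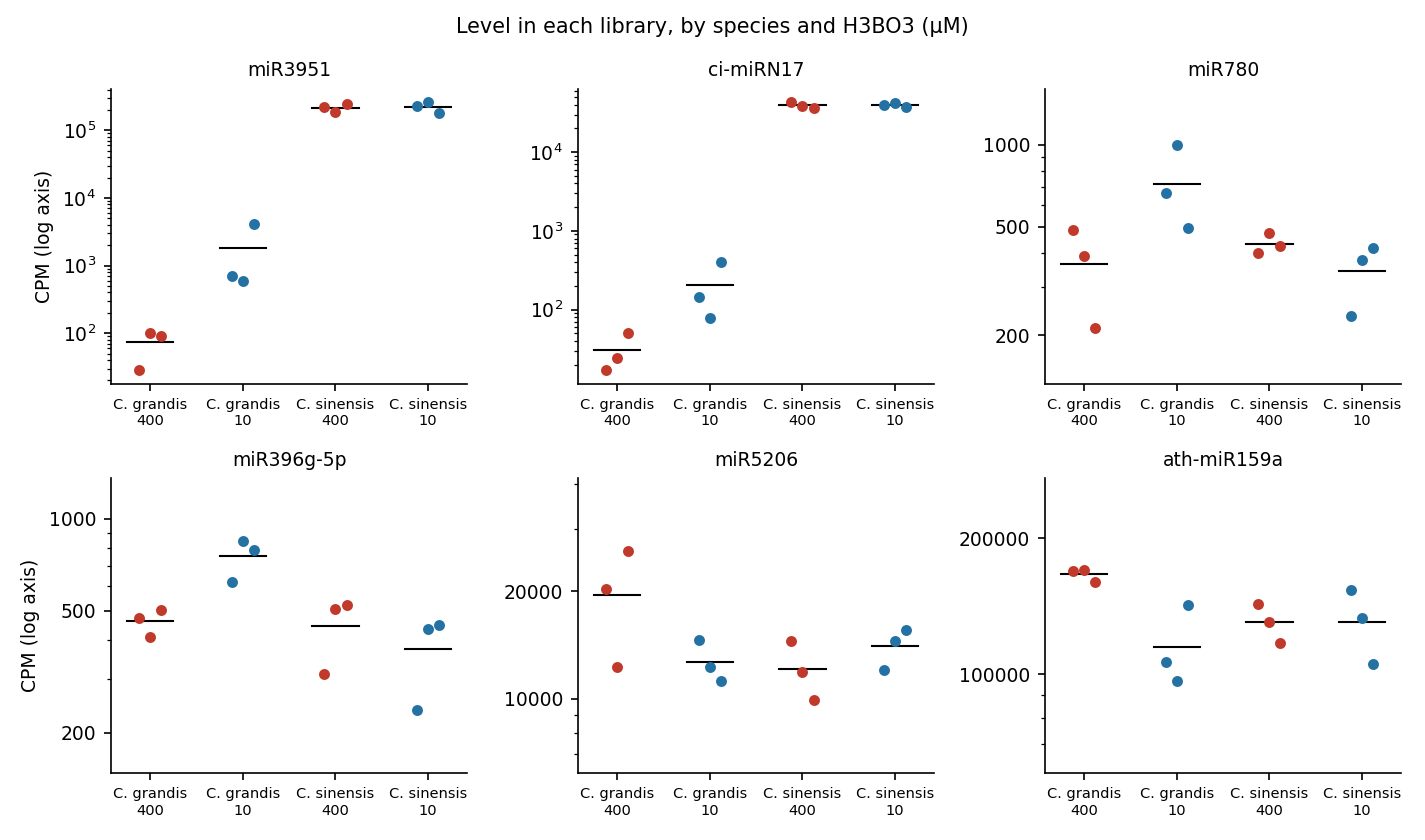
CPM on log axes in each library for 6 sequences, with points for libraries (red 400 µM, blue 10 µM) and bars for group means. miR3951 and ci-miRN17 are far lower in C. grandis than in C. sinensis. Their C. grandis libraries at 400 µM lie below those at 10 µM. The species lie much closer together for miR780, miR396g-5p, miR5206 and ath-miR159a. At 10 µM C. grandis is still higher without overlap for miR780 (mean 720.5 against 344 CPM) and for miR396g-5p (753 against 374 CPM).

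At unadjusted p under 0.05 there were 6 sequences, 4.84% of those tested. Lower in the C. grandis response were 5 (4.03% of those tested) and higher was 1 (0.806%). A share of 4.84% is about what a threshold of 0.05 lets through where no response differs. The set and its direction are therefore not read as a result. Beyond miR3951 and ci-miRN17 the set held miR780, mir7496, miR396g-5p and miR5206. Without C. grandis 400 µM replicate 2 the 6 became 15, with 12 lower and 3 higher, and total-count scaling gave 8, all lower. None of these 4 passed the adjusted test in edgeR or in any alternative run. miR780 was at 486, 392.5 and 213 CPM in C. grandis at 400 µM, against 664, 1001 and 496 CPM at 10 µM. Its C. sinensis level was 401, 474 and 426 CPM at 400 µM, against 236, 379 and 417 CPM at 10 µM. Its C. grandis libraries were all lower at 400 µM, and its C. sinensis groups overlapped with the higher mean at 400 µM. The difference was −1.31 (SE 0.47, 95% interval −2.34 to −0.29, adjusted p = 0.676, edgeR).

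The miR396 family, to which miR396g-5p belongs, represses GRF genes, whose products promote cell proliferation in growing organs, and the authors' deposited target table lists growth-regulating factor 3 among its predicted targets. It was at 473, 410 and 501 CPM in C. grandis at 400 µM, against 622, 846 and 792 CPM at 10 µM. C. sinensis had 309.5, 507 and 524 CPM at 400 µM, against 236, 437 and 448 CPM at 10 µM. The C. grandis groups did not overlap, and the C. sinensis groups did. Its difference was −0.96 (SE 0.39, 95% interval −1.81 to −0.12, adjusted p = 0.700, edgeR). The other 4 sequences named miR396 had differences between −0.17 and +0.06. They include the nearest relatives of miR396g-5p, which lies at an edit distance of 1 from ccl-miR396 and from ptc-miR396f.

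miR5206, a name known from Medicago, was the 1 sequence with a higher response in C. grandis at unadjusted p under 0.05. It was at 20330, 12300 and 25980 CPM in C. grandis at 400 µM, against 14620, 12270 and 11190 CPM at 10 µM. C. sinensis libraries had 14530, 11850 and 9905 CPM at 400 µM, against 12060, 14490 and 15570 CPM at 10 µM. Groups overlapped in both species. The difference was +0.84 (SE 0.37, adjusted p = 0.913, edgeR), and its 4 loci have identical counts, so it is 1 measurement.

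mir7496 shows how far counts limit such a comparison. In C. grandis it had 0 counts in each library at 400 µM and 2, 1 and 2 counts at 10 µM. In C. sinensis it had 186, 255 and 214 counts at 400 µM, against 185, 279 and 228 counts at 10 µM. Scaled to library totals, these were 548, 525 and 434 CPM at 400 µM, against 673, 648 and 779 CPM at 10 µM. The C. sinensis level was thus lower at 400 µM without overlap (log2 response −0.48). The fitted difference of −3.17 depends on the prior count. With 3 counts set over the C. grandis group at 400 µM and its 5 counts at 10 µM taken as they stand, mir7496 was 1.46-fold lower at 400 µM. This leaves a log2 difference to C. sinensis of −0.07 at that bound. The counting error of the 5 counts is not in the bound, so it does not establish a lower level in C. grandis at 400 µM. scaffold_3_10325 and scaffold_8_42593 had at most 3 counts in each C. grandis group and get no fold, so 122 sequences remain with a value.

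The sequences ranked 7 to 15 by p had adjusted p between 0.944 and 0.960. Lower C. grandis responses among them were those of bdi-miR166f (−0.63), a form of the family that acts on class III HD-ZIP factors, of the citrus 22-nt miR3954 (−0.76), of ptc-miR478a (−0.42), of ath-miR859 (−0.63) and of miR164b-3p (−2.31), the other arm of a hairpin of the NAC-directed family. Higher C. grandis responses were those of ath-miR159a (+0.54 at scaffold_3_17340), a regulator of MYB factors, of the auxin-related miR167h (+0.45), of csi-miR472 (+0.60), which acts on disease-resistance transcripts, and of miR5770 (+1.23). miR164b-3p rested on a single library. It was at 45.4, 343 and 125 CPM in C. grandis at 400 µM, against 110, 248.5 and 1592 CPM at 10 µM, and without C. grandis 10 µM replicate 3 its difference was −0.49. miR5770 was at 39.8, 365.5 and 155 CPM in C. grandis at 400 µM, against 105, 93.4 and 88.5 CPM at 10 µM, and without C. grandis 400 µM replicate 2 its difference was +0.14. miR3954 was at 3496, 5907 and 4906 CPM in C. grandis at 400 µM, against 9848, 7251 and 12090 CPM at 10 µM. In C. sinensis miR3954 was at 8218, 5825 and 5387 CPM at 400 µM, against 8997, 7580 and 6901 CPM at 10 µM, so it was lower on average at 400 µM in both species, without overlap in C. grandis and with overlap in C. sinensis.

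Opposite responses without overlap, with all 3 libraries at 400 µM above those at 10 µM in one species and below them in the other, were found for 0 of the 124 sequences (0%). The same direction without overlap in both species was found for 3 sequences (2.42%), mir7496 with its counts of 0, and miR3627.2 and miR472, both above. Of the 122 sequences with a value, 77 had responses of the same sign and 45 of opposite sign, 19 of these higher in C. grandis and lower in C. sinensis at 400 µM and 26 the reverse. Of the differences 60 were above 0 and 62 below, with a median of −0.02 (quartiles −0.28 and 0.28). Trimmed-mean scaling centres each library on the bulk of the sequences, so this balance is largely set by the scaling. The median response itself was +0.01 in C. grandis and +0.04 in C. sinensis. A log2 difference beyond 1 in either direction was found for 10 sequences, 7 lower and 3 higher in C. grandis, or 6 lower with mir7496 at its bound.

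**Figure D3:**
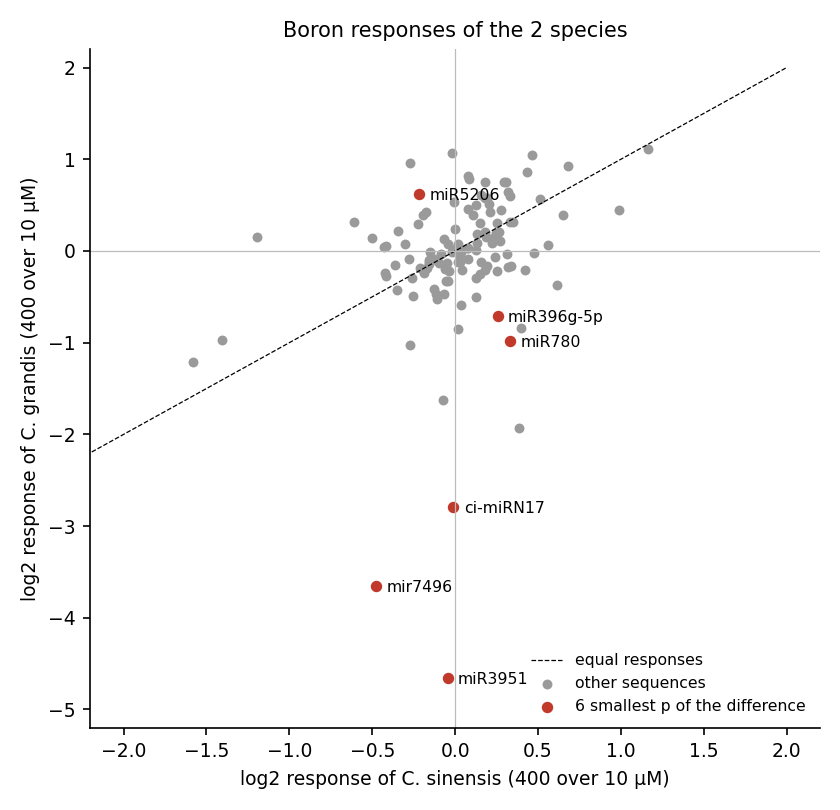
Log2 response (400 over 10 µM) of C. grandis against that of C. sinensis for the 122 sequences with a value, with the line of equal responses and in red the 6 with the smallest p of their difference. miR3951, ci-miRN17 and mir7496 lie far below the line at C. sinensis responses between −0.48 and −0.01, and the fitted value of mir7496 rests on counts of 0.

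A p that misses the threshold does not show that the species responded alike, so the 95% intervals of the differences were counted. For 42 of the 122 sequences with a value (34.4%) the interval lay within a 2-fold difference in either direction. For 80 it reached past 2-fold, for 18 of them in both directions, for 34 only towards a lower (33 without mir7496, whose interval depends on the prior count) and for 28 only towards a higher response in C. grandis. Precision was lowest for the scarce sequences. Within 2-fold were 5 of the 41 least abundant sequences (30.2 to 275 mean CPM, median SE 0.57), 20 of the 41 of middle abundance (median SE 0.36) and 17 of the 42 most abundant (median SE 0.36). Among the narrowest were ath-miR403-3p at scaffold_3_17634, of the family that acts on ARGONAUTE2, at +0.04 (interval −0.49 to 0.57), and the most abundant HD-ZIP regulator, ath-miR165a-3p at scaffold_9_46062, at +0.02 (interval −0.58 to 0.62; −0.13 under total-count scaling). The spread between libraries was larger in C. grandis, with a biological coefficient of variation of 37.2%, against 20.9% in C. sinensis and 30.3% over all 12 libraries.

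**Figure D4:**
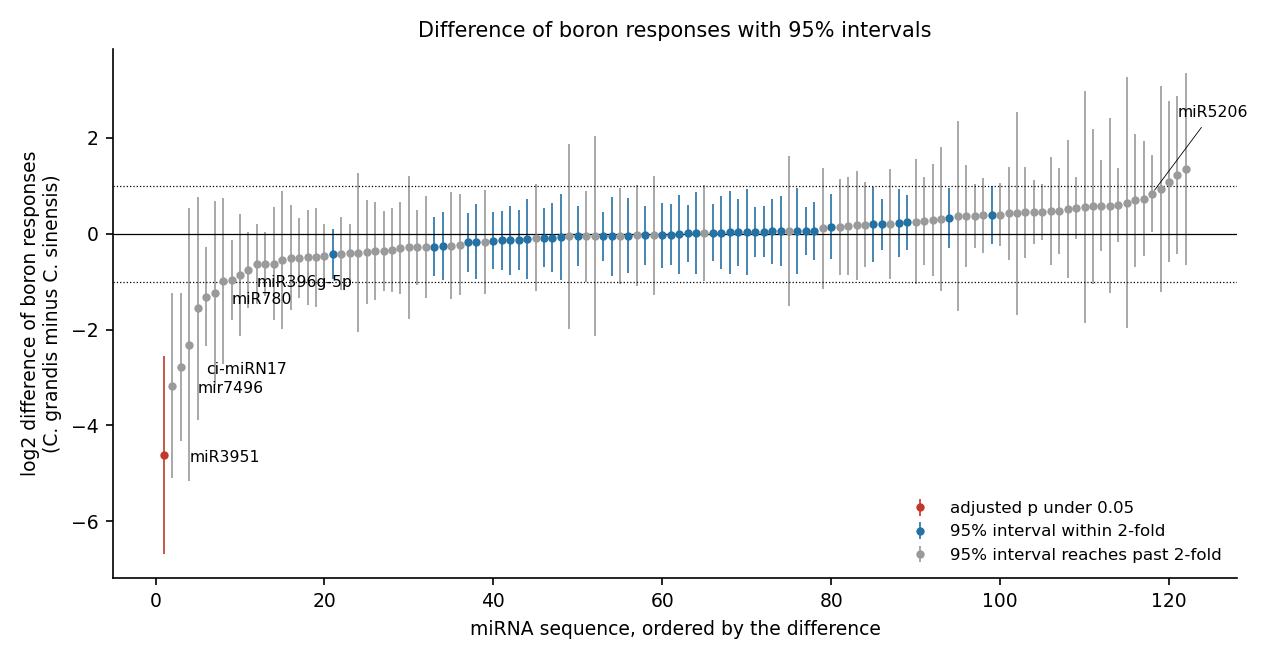
Log2 difference of boron responses (vertical axis, C. grandis minus C. sinensis) with its 95% interval for the 122 sequences with a value, ordered by the difference, with dotted lines at 2-fold. The 1 red sequence is miR3951, the 42 blue ones have intervals within 2-fold, and the fitted value of mir7496 rests on counts of 0.

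The miR319 family, which restrains TCP factors and with them the growth of organs, is named in the series title. Its 5 forms from the miR319 arm cover shifted windows of nearly the same letters and have 3 seeds, 1 shared by miR319 and ppt-miR319a and 1 by both ath-miR319a forms, and miR319-5p comes from the opposite arm of a hairpin.
ppt-miR319a: uUUGGACUgaagggagcucc
miR319: aUUGGACUgaagggagcucc
ath-miR319a (scaffold_3_9221): uUGGACUGaagggagcuccc
ath-miR319a (scaffold_5_23391): uUGGACUGaagggagcuccu
gma-miR319g: uGGACUGAagggagcuccuuc
miR319-5p: gAGCUCUCugaacuccaaguc
The 6 sequences had differences between −0.06 and +0.44, and 0 passed the test (adjusted p = 0.984 for each, edgeR). The form miR319 (scaffold_3_9747) was at 5231, 3537 and 9010 CPM in C. grandis at 400 µM, against 2905, 2924 and 4760 CPM at 10 µM. In C. sinensis it was at 4360, 4283 and 5135 CPM at 400 µM, against 3779, 4046 and 3331 CPM at 10 µM. Its mean was higher at 400 µM in both species, with overlapping groups in C. grandis and no overlap in C. sinensis. The difference was +0.44 (SE 0.43, 95% interval −0.50 to 1.39), and it was 0.0088 without C. grandis 400 µM replicate 3, the library at 9010 CPM. Intervals stayed within 2-fold for ppt-miR319a (+0.22), for gma-miR319g (+0.05, but −0.07 under total-count scaling) and for ath-miR319a at scaffold_5_23391 (−0.02, but +0.04 under median-of-ratios scaling). That of ath-miR319a at scaffold_3_9221 (−0.05, but +0.01 under median-of-ratios scaling) reached −1.004, and that of miR319-5p ran from −1.99 to 1.87 around −0.06. miR319-5p was at 8192, 1729 and 7969 CPM in C. grandis at 400 µM, against 1773, 4270 and 2246 CPM at 10 µM, so that libraries of 1 group differed more than the group means.

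miR171 acts on GRAS factors of the SCARECROW-LIKE type in the root meristem. miR171b.3 had a difference of +0.57 (SE 0.74), and ath-miR171b-3p one of −0.17 (SE 0.50), both at adjusted p = 0.984 (edgeR), and the sequence named miR171 had 1 to 9 counts per library in C. grandis and was not tested. In C. grandis miR171b.3 was at 51.1, 54.0 and 158 CPM at 400 µM, against 49.2, 38.8 and 66.9 CPM at 10 µM, and without C. grandis 400 µM replicate 3 its difference was −0.15. The sequence that the authors name miR9563 shares its seed with ath-miR171b-3p, and their deposited table gives it the GRAS targets of miR171. It had a difference of −1.24 (SE 0.88, adjusted p = 0.960, edgeR) and was singled out after its value was seen.

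Family lists were read by how many members lay above or below 0 and by their median, beside the 60 above, 62 below and median of −0.02 of all sequences. Total-count scaling moved the median over all tested sequences by more than 0.1, to −0.15, and with it the split around 0. The 42 conserved land-plant sequences had 24 above and 18 below, a median of +0.03 and 0 called. Regulators of organ growth (miR159, miR319, miR394 and miR396) had 10 of 15 above 0, a median of +0.05 and 0 called, between miR396g-5p and ath-miR159a. The 18 sequences of root patterning and lateral roots had 12 below 0, a median of −0.05 and 0 called. Intervals of 9 of them lay within 2-fold. This list goes by the authors' names, and its member ath-miR166a-5p (−0.49) is 24 nt long. miR164b-3p and miR319-5p come from the other arm of their hairpins. All of these lay below 0, and their place among root regulators is uncertain, and with it the count below 0. In this list miR171b.3 was the highest, and miR164b-3p, whose value hangs on 1 library, the lowest. The 3 miR160 sequences lay between −0.04 and +0.06.

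Auxin signalling had 4 of 7 above 0, a median of +0.06 and 0 called. The list includes the 3 miR160 sequences, which lay on both sides of 0, between −0.04 and +0.06. All 3 miR167 sequences were between +0.39 and +0.45, and ath-miR390a-5p, which sets off the tasiRNAs against auxin response factors, was at −0.42 (SE 0.35). The miR167 sequences share a seed and differ near their 3′ end, and whether they share reads was not tested. Developmental timing (miR156, miR157 and miR172) had 3 of 4 above 0 and a median of +0.16, from miR156k at −0.55 to miR157 at +0.43. Its only miR172 member, miR172a-5p, has no target annotated as AP2 in the authors' deposited target table. Small RNA machinery had 3 of 6 above 0 and a median of 0.00, with 5 of 6 intervals within 2-fold, and ran from ath-miR168b-3p at −0.13 to ath-miR403-3p at scaffold_9_45786 at +0.48. This list goes by the authors' names, and ath-miR168b-3p and ath-miR403-3p at scaffold_5_25549 are 24 nt long, the first at an edit distance of 1 from a sequence named atr-miR8553b, so that their place among regulators of this machinery is uncertain. In both lists 0 members were called.

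In 3 short lists all members were above 0. The nutrient list had 3 of 3 above 0. Its members ath-miR395a, a regulator of sulfate assimilation, and miR2111a were at +1.09 (SE 0.77) and +0.93 (SE 0.99). The phosphate-related ath-miR827 was at +0.31 (SE 0.69), but at −0.38 without C. grandis 400 µM replicate 3. ath-miR395a was at 526, 147 and 703 CPM in C. grandis at 400 µM, against 221, 322.5 and 110 CPM at 10 µM, and at 41.3, 72.1 and 81.2 CPM in C. sinensis at 400 µM, against 80.0, 74.4 and 44.4 CPM at 10 µM. Both species had overlapping groups. The woody-plant families also had 3 of 3 above 0, with miR3627.1 at +0.73 (SE 0.55; +0.27 without C. grandis 400 µM replicate 3), miR3627.2 at +0.58 (SE 0.43) and vvi-miR3625-5p at +0.15 (SE 0.46), of which the last was below 0 under total-count scaling. Of the copper-linked pair, miR398, which acts on copper superoxide dismutase transcripts, was at +0.36 (SE 0.91). The second, miR397-3p, by its name the other arm of a hairpin of the laccase-related family, was at +0.43 (SE 0.97). Each had lower means at 400 µM in both species. Every interval in these 3 lists reached past 2-fold, and 0 members were called.

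Triggers of phased small RNAs had 2 of 6 above 0, a median of −0.22 and 0 called, with csi-miR472 the highest and miR3954 the lowest. This list also goes by the authors' names. Its members gma-miR482a-5p (−0.15) and ata-miR9863a-3p (−0.28) are 24 nt long, so their place among the triggers is uncertain, and with it the median. The other stress families ran from csi-miR477b at −0.50 to osa-miR530-5p at +0.59 (SE 0.84; 0.0033 to 1.01 with 1 library left out, lowest without C. sinensis 10 µM replicate 1), with 3 of 5 above 0, a median of +0.03 and 0 called. Among the 25 sequences without a known homologue, 10 of the 23 with a value were above 0, the median was −0.05 and ci-miRN17 was the lowest, with 0 called. The citrus-lineage pair, miR3951 and miR3954, was below 0 in both members, with 1 called.

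**Figure D5:**
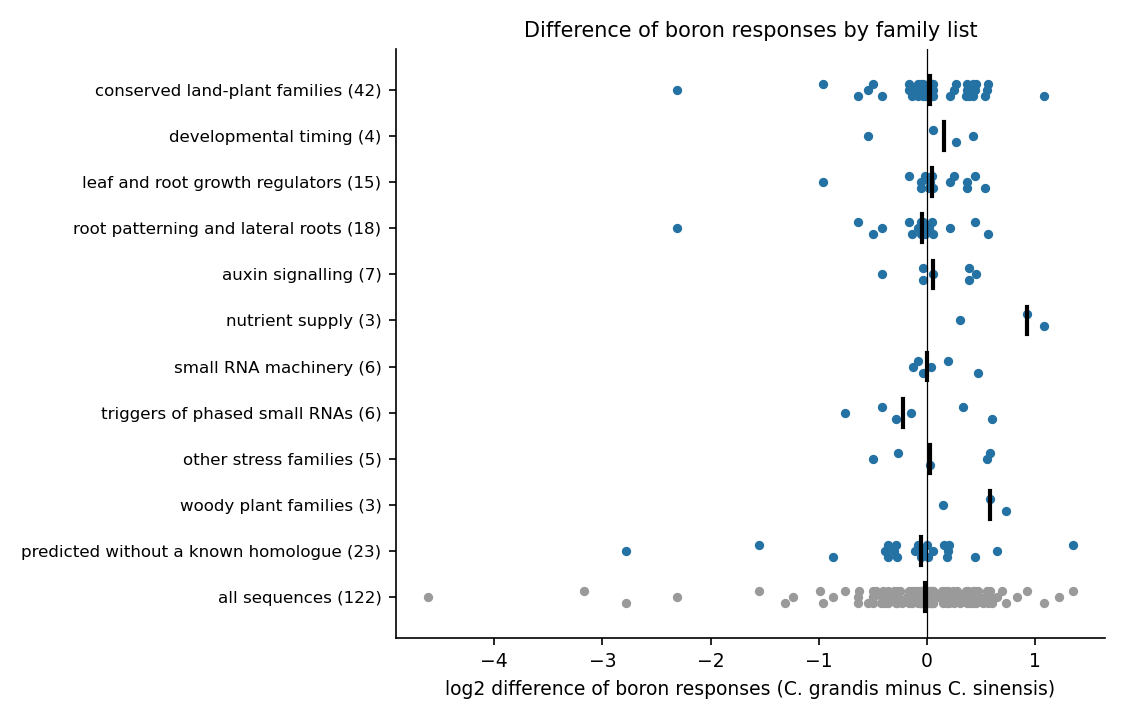
Log2 difference of boron responses (horizontal axis) of the members of each family list with at least 3 sequences and of all 122 sequences, with points for sequences, bars for medians and numbers of sequences in parentheses. List medians lie between −0.22 and +0.93 around the −0.02 of all sequences, and the lists of nutrient supply and woody plant families are the 2 here with every member above 0.

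For the 4 other sequences among the 5 most abundant, differences lay between −0.13 and +0.54. The unnamed 20-nt sequence scaffold_1_3278 was at −0.08 (SE 0.51), and the second ath-miR165a-3p sequence, at scaffold_5_27452, was at −0.13 (SE 0.33). ath-miR159a (scaffold_3_17340) was at 169500, 169700 and 159600 CPM in C. grandis at 400 µM, against 106400, 96750 and 142200 CPM at 10 µM. In C. sinensis it was at 143100, 130300 and 117100 CPM at 400 µM, against 153900, 132800 and 105300 CPM at 10 µM. Its C. grandis groups did not overlap and its C. sinensis groups did, with a difference of +0.54 (SE 0.30, 95% interval −0.11 to 1.18, adjusted p = 0.960, edgeR). By length, the median difference was +0.12 over 12 sequences of 19 to 20 nt, −0.03 over 39 of 21 nt, +0.17 over 19 of 22 nt and −0.09 over 48 of 24 nt, with mir7496 at its bound −0.07 for the last. Of the 6 sequences at unadjusted p under 0.05, 4 were 24 nt long and 2 were 21 nt long. Among the 124 tested, 49 were 24 nt long and 40 were 21 nt long, and the 4 include mir7496, whose value depends on the prior count. By first base, 35 of 59 sequences that begin with U were above 0 (median +0.03), 19 of 41 with A (−0.03), 5 of 15 with G (−0.25) and 1 of 7 with C (−0.28).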

How the data were processed

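Small RNA of root tips was sequenced in 12 libraries. Per the labels' protocols the TruSeq small RNA kit and an Illumina HiSeq instrument were used. The submitters' processing notes name DESeq with no version. For trimming, aligner, miRNA caller and genome build, no entry is given in the sources used here. The deposited expression table has whole-number read counts for each locus, whose totals differ between libraries, and by these values they are not normalised. The deposited table of identified miRNAs gave sequences, positions and a score of the hairpin prediction, which was not used further. Names are those of the authors' deposited tables. Library totals, each sequence counted once, ran from 282149 to 577150 counts. Every replicate pair differed by more than counting error. Count intervals and limits cover counting error only.

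Of the 126 sequences 27 had several entries, 13 of these with identical counts in each, and the entry with the highest total stood for its sequence. The test was that of edgeR 4.0.16 in R 4.3.3, with trimmed-mean scaling, filterByExpr at a count minimum of 10, 1 mean per group over all 12 libraries, a two-sided quasi-likelihood test of the difference of responses, and Benjamini-Hochberg adjustment over 124 sequences with a threshold of 0.05. Standard errors are the absolute log2 value over the root of F, and 95% intervals follow from them. Alternatives used DESeq2 1.42.0 and limma 3.58.1. The test was run on simulated data first, where each sequence had the same base level and the same spread in both species. Sequences with levels and spreads as unlike between the species as those of miR3951 were not simulated. A group at 0 was set to 3 counts over the group. Whether replicate numbers pair libraries is treated with the alternatives.

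Named sequences were the 15 with the smallest p, all tested miR319 and miR171 sequences, the 5 most abundant, and the highest and lowest member of each list with at least 3. Others (the 2 near-identical sequences, the 5 scarce in C. grandis, other list members, the narrowest intervals, the 3 with the same direction) were chosen after their values were seen. The members and lists were chosen with earlier results of these data known. Family lists go by the family number in the name, whatever the sequence.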

Additional observations from a re-analysis of the deposited data

Results flagged for a closer look

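miR3951 was picked out because its boron response differed between C. grandis and C. sinensis in the test of the difference itself, at −4.61 on the log2 scale (SE 0.95, adjusted p = 0.0477, edgeR quasi-likelihood test with 3 libraries per group). It was lower in 3 of 3 C. grandis libraries at 400 µM than in all 3 at 10 µM, and the C. sinensis groups overlapped. Groups apart in C. grandis only were also found for uncalled sequences, so this pattern is no separate support.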

How the results depend on the processing

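The count of 1 sequence called held under median-of-ratios scaling, without a filter, with a mean CPM of at least 10 and with rounded means over loci. It was 2 (miR3951 and ci-miRN17) under total-count scaling, in DESeq2 and with the replicate block. It was 0 with all entries unmerged (miR3951 at −4.57), in robust edgeR (−4.61), in limma voom (−4.23) and when testing for a log2 difference of at least 1, where 3 sequences had an unadjusted p under 0.05; the first 3 had 9, 6 and 6. Leaving out 1 library at a time gave 0 to 2 calls and −5.01 to −3.17 for miR3951. The 42 intervals within 2-fold became 66 with all entries unmerged, where 170 entries were tested, and 28 to 44 elsewhere. The labels do not say that replicate numbers are shared between groups, so the reported fit does not take them as pairs. Same-numbered libraries had correlations of −0.07, −0.24 and 0.24 in C. grandis, against 0.45, 0.27 and 0.31 in C. sinensis. In C. sinensis, unlike C. grandis, each library matched its own number best, so a pairing there may be left out of the reported fit. With the replicate block miR3951 was at −4.19 (adjusted p = 0.0046, edgeR). Of 814 values of 37 named sequences under the alternatives, 745 kept direction and side of the threshold, 12 lost the call (miR3951), 4 newly passed (ci-miRN17) and 53, of 12 sequences, changed sign, and the cause was not tested. A further 15 sequences moved by over 1.5 times, with no change of sign, when 1 library was left out.

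Sign changes under total-count scaling were those of vvi-miR3625-5p (−0.012), gma-miR319g (−0.066) and ath-miR165a-3p at scaffold_9_46062 (−0.13). The last also changed without a filter (−0.021) and with a mean CPM of at least 10 (−0.026), and ath-miR827 in limma voom (−0.013). ath-miR319a at scaffold_3_9221 was at 0.0061 under median-of-ratios scaling and in DESeq2, 0.0085 with all entries, 0.087 in limma voom and 0.095 with the replicate block. ath-miR319a at scaffold_5_23391 was at 0.043 under median-of-ratios scaling and in DESeq2, 0.056 with all entries, 0.045 in limma voom and 0.038 with the replicate block. With 1 library left out, ranges that cross 0 were −0.97 to 0.011 for miR156k, −0.15 to 0.85 for miR171b.3, −0.34 to 0.041 for ath-miR168b-3p, −0.38 to 0.58 for ath-miR827, −0.53 to 0.0056 for ath-miR171b-3p, −0.36 to 0.34 for vvi-miR3625-5p, −0.52 to 0.17 for scaffold_1_3278, −0.13 to 0.27 for gma-miR319g, −0.31 to 0.48 and −0.25 to 0.28 for ath-miR319a at scaffold_3_9221 and scaffold_5_23391, −0.14 to 0.052 for ath-miR165a-3p at scaffold_9_46062 and −0.68 to 0.46 for miR319-5p.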
